A study of Mus musculus with 4 samples.

Results

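The transcripts of the regulated exocytosis machinery were measured in gonadotropes, the pituitary cells that release luteinizing hormone and follicle-stimulating hormone, from mice with and without a conditional knockout of Gata2. The machinery was taken as 35 named genes for SNAREs (the membrane fusion proteins), complexins, synaptotagmins, granule Rab GTPases, Rab effectors, priming factors, SNARE disassembly factors and granule membrane proteins. They were found in the deposited table of 54532 genes by their Ensembl identifiers, named with GENCODE M21 on mm10. Of the 35 genes, 34 had 10 or more counts in at least 2 of the 4 libraries and were kept as members. The exception, Sytl5, had 60 counts in cKO replicate 1 and 0 counts in the other 3 libraries.

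The study compared 2 libraries from GATA2 cKO mice with 2 libraries from control mice. All mice were males of 10 to 12 weeks and of mixed strain, and poly(A) RNA was sequenced from sorted gonadotropes, per the labels' protocols, although the series' design text speaks of whole pituitaries. The series title calls the knockout gonadotrope-specific. The sources used here name neither the Cre driver nor the alleles of the controls nor the number of animals behind each library, so p-values measure the spread between libraries, which may be technical.

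Regulated exocytosis is the release of stored granules on demand. Rab3 and Rab27 proteins on the granule recruit effectors that tether it to the plasma membrane, Munc13 and CAPS proteins prime it, and the SNAREs syntaxin 1, SNAP-25 and VAMP2 zip together to fuse the membranes when synaptotagmin binds calcium. NSF and SNAP adaptor proteins then pull the spent SNARE complexes apart. In gonadotropes the calcium rise that triggers this release follows from gonadotropin-releasing hormone.

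The libraries held 15541553 and 18362182 counts in cKO replicates 1 and 2, and 10646909 and 21135301 counts in control replicates 1 and 2. Gata2 had 221 and 214 CPM (counts per 1000000 counts of a library, scaled by TMM factors) in the cKO libraries, against 537 and 526 CPM in the controls, and its log2 fold change (cKO minus control) was -1.29, with an SE of 0.14 and an adjusted p of 0.0473 by edgeR. Its count covers the whole gene and can include exons outside the deleted part. All 8 gonadotrope markers were detected. Of these, 7 were lower in both cKO libraries than in either control, where 19.3% of all genes tested were. The 8 summed to 7004 and 8283 CPM in cKO and 15975 and 14382 CPM in controls. The hormone genes Fshb, Lhb and Cga had the highest levels of the 8. Nr5a1 overlapped between the groups, with 275 and 372 CPM in cKO and 277 and 397 CPM in controls. Its log2 fold change was -0.06 (SE 0.23). RNA of other pituitary cells was present. Pomc, the corticotrope hormone precursor, had 6032 and 7145 CPM in cKO and 7161 and 9813 CPM in controls. That was above Cga, the highest gonadotrope marker, in every library (3448 and 4185 CPM in cKO, 6054 and 6137 CPM in controls). Of the 5 corticotrope markers, 3 were lower in both cKO libraries, beside 19.3% of all genes tested. Lactotrope markers summed to 1350 and 1367 CPM in cKO and 358 and 630 CPM in controls. Of the 5, 4 were higher in both cKO libraries, beside 19.7% of all genes tested. Pituitary stem cell markers summed to 105 and 121 CPM in cKO and 53.7 and 53.0 CPM in controls. Of the 6, 3 were higher in both cKO libraries, beside the same 19.7%. Somatotrope markers differed within groups, at 2170 and 406 CPM in cKO and 1155 and 2405 CPM in controls. The 13 mitochondrially encoded genes held 7.58% and 8.74% of counts in cKO and 5.36% and 6.04% in controls. Across the genes tested, Pearson's r of log2 CPM was 0.902 between the cKO libraries and 0.889 between the controls. Between cKO and control libraries it was 0.841 to 0.928, and control replicate 1 gave the lowest values. Both cKO libraries had a higher r with control replicate 2 (0.917 and 0.928) than with each other.

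The machinery was expressed in every library, at widely different levels. Per kilobase of exon, 33 of the 35 genes averaged more than 1 CPM, 21 more than 10 CPM and 4 more than 100 CPM over the 4 libraries. Ptprn had the highest mean level per length, 347 CPM per kb, followed by Syt4 at 166, Vamp2 at 113, Rab27a at 110 and Rab3b at 99.4 CPM per kb. Rph3a was the lowest of the 34 members with 0.367 CPM per kb. At least 100 counts were found in every library for 31 of the 35 genes, and 2 genes had a count of 0 in some library. The summed level of all 35 genes was 5984 and 6710 CPM in cKO and 6430 and 6606 CPM in controls, so the groups overlapped.

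**Figure D1:**
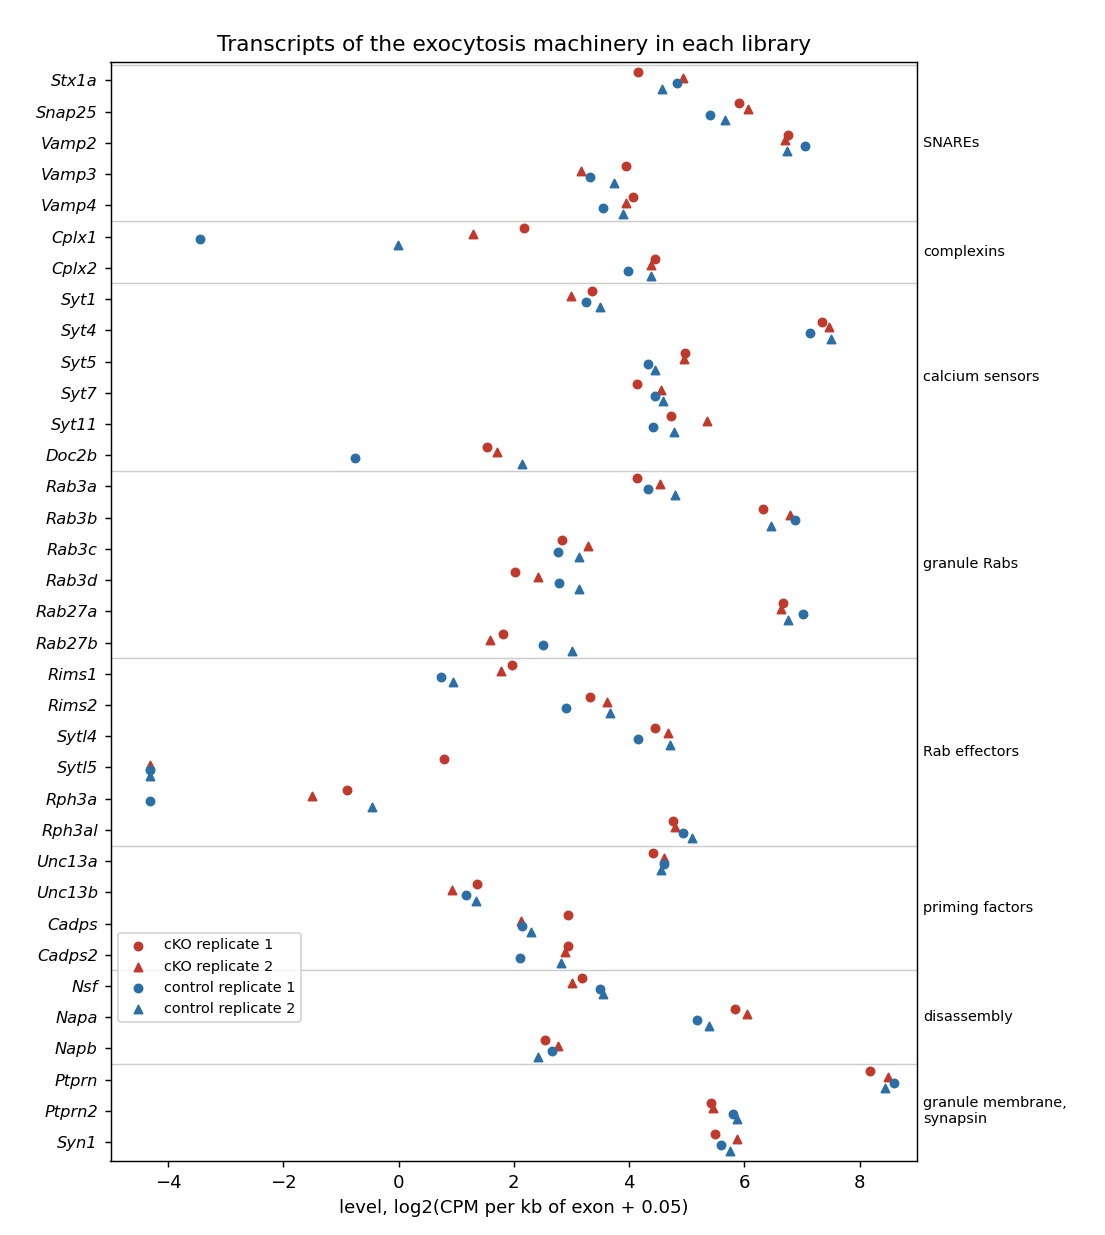
Level of each of the 35 genes in each library, as log2 of CPM per kb of exon plus 0.05, grouped by role. Red points are cKO libraries and blue points control libraries, circles are replicate 1 and triangles replicate 2. For most genes the 4 points lie close together, while Cplx1, Doc2b, Rph3a and Sytl5 are spread over several log2 units at low levels.

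No member passed the test for a difference between cKO and control. With edgeR's quasi-likelihood test and adjustment over all 17349 genes tested, 0 of 34 members had an adjusted p under 0.05, where 0.0576% of all genes did (0.0115% higher and 0.0461% lower in cKO), and the smallest adjusted p was 0.515. At an unadjusted p under 0.05 there were 6 members (17.6%), 4 higher and 2 lower in cKO, beside 7.04% of all genes (3.15% higher and 3.88% lower). Of the 12600 genes that averaged 4 CPM or more, 524 were higher and 531 lower at that threshold. DESeq2 called 6 members (Napa, Snap25, Syt5 and Rims1 higher, Rab27b and Ptprn2 lower in cKO), which is 17.6% of them, where DESeq2 called 5.44% of all genes tested. Limma-voom called 2 members (Napa higher and Rab27b lower), 5.88% of them, and 1.48% of all genes. The newer quasi-likelihood method of edgeR called 0 members and 0.271% of all genes. The shares of these alternative tests were not matched on level. The cKO libraries did not overlap the controls for 13 members (38.2%), 7 above and 6 below, beside 39% of all genes tested (19.7% above and 19.3% below). That share is about the background.

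Most fitted fold changes of the members were small. Of the 34 members, 19 were above and 15 below a log2 fold change of 0, where 47.6% of all genes tested were below it, and the median was 0.07, beside 0.03 over all genes tested. A log2 fold change within 0.5 of 0 was found for 28 members (82.4%), beside 54.8% of all genes tested and 66% of genes that averaged 4 CPM or more. The other 6 members ranged from -1.08 for Rab27b to 2.78 for Cplx1. The 95% interval of the log2 fold change lay between -1 and 1, that is within a 2-fold change in either direction, for 23 members (67.6%), beside 25.8% of all genes tested. It lay above -1 for 29 members (85.3%), beside 40.1% of all genes tested. The intervals of 11 members reached past a 2-fold change. The width of an interval depends on the counts of a gene, and these shares were not matched on level.

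**Figure D2:**
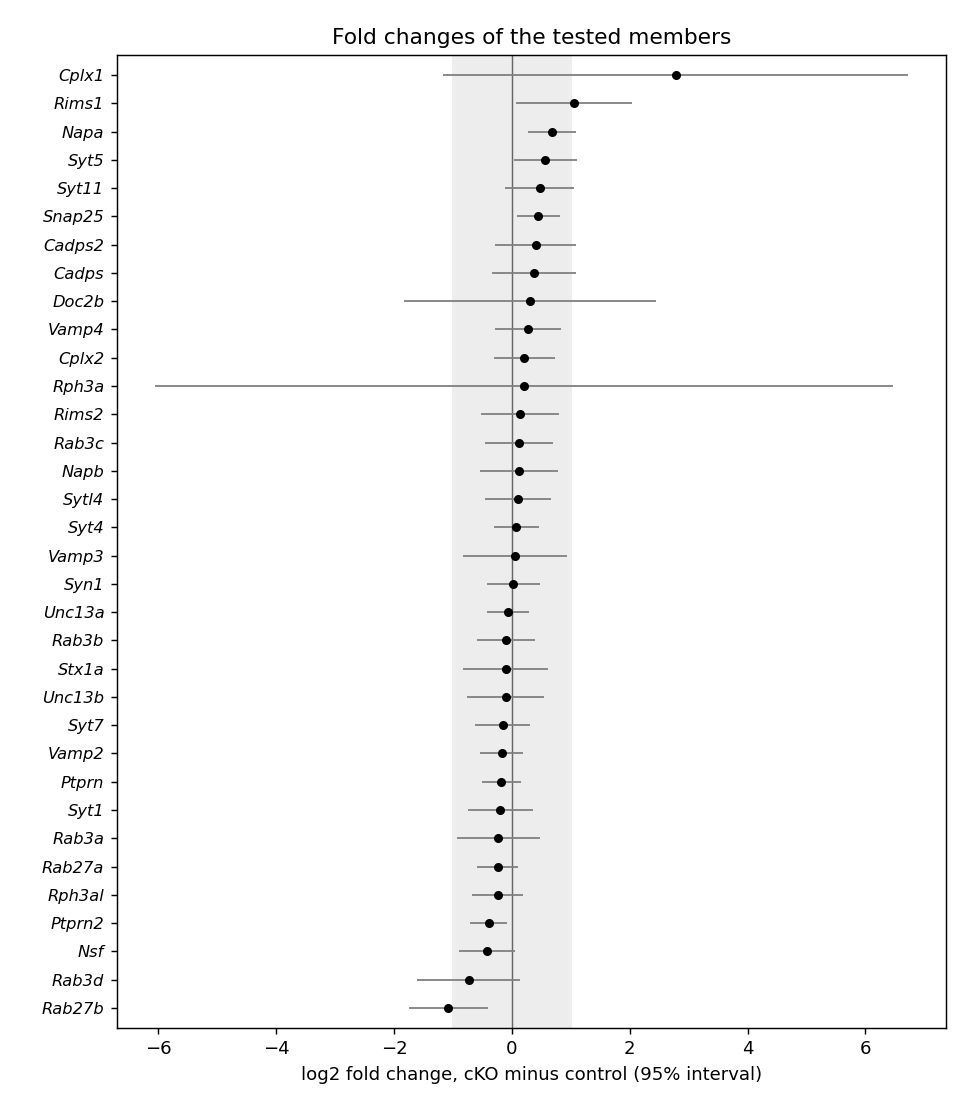
Fitted log2 fold change, cKO minus control, of each of the 34 tested members with its 95% interval from edgeR. The grey band spans -1 to 1. The intervals of 23 members lie inside the band, those of Napa, Snap25, Syt5, Rims1, Ptprn2 and Rab27b do not include 0, and those of Cplx1, Doc2b and Rph3a are the widest.

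**Figure D3:**
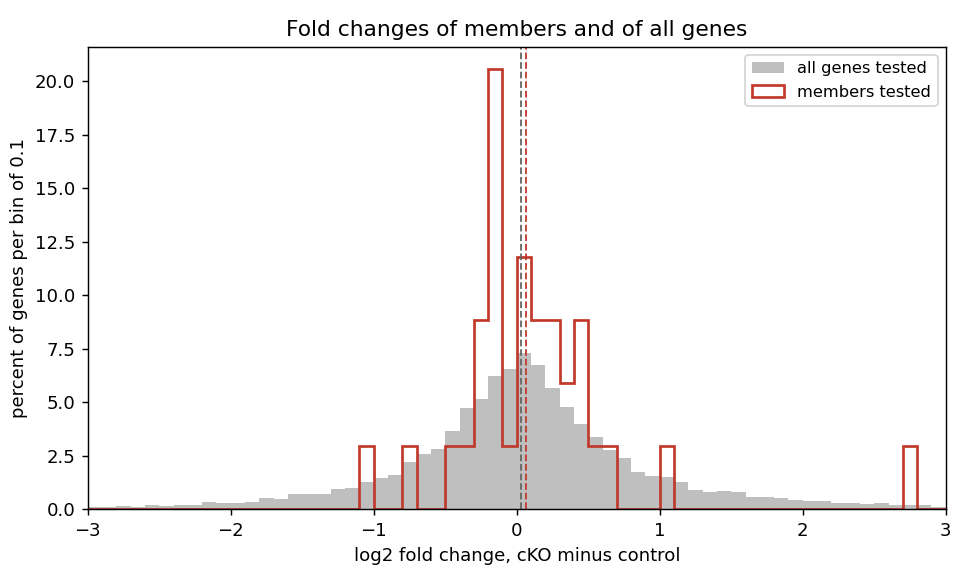
Share of genes in each 0.1-wide bin of log2 fold change, cKO minus control, for the 17349 genes tested (grey) and the 34 members (red line), shown from -3 to 3. Dashed lines mark the medians, 0.07 for members and 0.03 for all genes, and most members lie between -0.5 and 0.5.

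Gata2 codes for a factor that binds GATA sequences, so the promoter windows of the members were searched for them. RefSeq windows of 300 bases (250 before and 50 after the start site, GRCm38.p6) were matched by symbol for 26 of the 35 genes. The 9 without a window were Snap25, Vamp2, Vamp3, Syt4, Syt5, Syt7, Doc2b, Rab27b and Rims2, so they are not covered by this search. The search took the hexamer AGATAA, its form AGATAG with G as the last letter, the form TGATAA with T as the first letter and the form TGATAG with both changes, on either strand and with overlaps allowed. At least 1 hexamer occurred in 11 of 33 member windows (33.3%), beside 29.8% of all 32851 windows. Napa and Ptprn2, shown because Napa had the smallest p of the members above 0 and Ptprn2, after Rab27b, the next smallest of those below 0, held none, and Rab3b, shown as the most abundant per length of the members with a single window and a match, held 1 that begins 177 bases before the start site (position -177), in capitals.
Napa (chr7:16098330-16098629, + strand): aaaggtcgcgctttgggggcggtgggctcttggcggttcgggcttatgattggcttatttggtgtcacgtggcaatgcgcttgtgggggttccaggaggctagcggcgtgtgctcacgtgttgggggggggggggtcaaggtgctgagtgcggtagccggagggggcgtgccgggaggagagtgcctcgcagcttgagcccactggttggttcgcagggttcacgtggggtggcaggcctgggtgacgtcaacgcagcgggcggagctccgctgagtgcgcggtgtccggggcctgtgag
Ptprn2 (chr12:116485470-116485769, + strand): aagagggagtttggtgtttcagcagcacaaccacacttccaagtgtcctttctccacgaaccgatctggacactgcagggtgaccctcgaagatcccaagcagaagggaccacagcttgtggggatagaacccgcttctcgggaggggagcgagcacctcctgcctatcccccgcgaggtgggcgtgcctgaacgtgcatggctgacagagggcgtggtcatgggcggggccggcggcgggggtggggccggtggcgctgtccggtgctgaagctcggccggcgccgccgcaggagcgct
Rab3b (chr4:108878820-108879119, + strand): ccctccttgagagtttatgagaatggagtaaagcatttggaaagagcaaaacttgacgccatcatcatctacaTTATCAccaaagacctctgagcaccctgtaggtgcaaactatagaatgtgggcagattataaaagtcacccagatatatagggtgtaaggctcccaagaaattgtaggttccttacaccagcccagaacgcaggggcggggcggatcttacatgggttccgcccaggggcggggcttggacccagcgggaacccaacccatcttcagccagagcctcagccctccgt
Of the 10 members with a hexamer, 5 were above and 5 below 0, with a median log2 fold change of -0.04 and a range of -0.24 to 0.47. Of the 15 tested members with a window and no hexamer, 8 were above and 7 below 0, with a median of 0.12 and a range of -0.74 to 2.78. A match describes the letters of these windows and not a bound site.

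Of the 5 SNARE genes, 3 were above and 2 below a log2 fold change of 0, and for Snap25 and Vamp4 both cKO libraries were above both controls. Vamp2, the granule v-SNARE and the most abundant SNARE per length, had 410 and 399 CPM in cKO, against 507 and 406 CPM in controls. The groups overlapped, with a log2 fold change of -0.17 (edgeR adjusted p = 0.980, SE 0.16). Snap25 (chr2:136713453-136782428, mm10, + strand), the palmitoylated t-SNARE of the plasma membrane, had 407 and 454 CPM in cKO and 287 and 344 CPM in controls. Both cKO libraries were above both controls, by a log2 fold change of 0.45 (95% interval 0.08 to 0.82, edgeR adjusted p = 0.649). The other SNAREs had log2 fold changes of -0.10 for Stx1a, the syntaxin partner of Snap25, 0.06 for Vamp3, the endosomal cellubrevin, and 0.27 for Vamp4, a v-SNARE of the trans-Golgi network and maturing granules. Vamp2 made up 77.1% and 81.2% of the Vamp level per length in cKO and 86.1% and 79.1% in controls.

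Complexins bind the assembled SNARE complex and hold it ready for calcium. Cplx2 was the main complexin, with 107 and 102 CPM in cKO and 77.5 and 103 CPM in controls, and its groups overlapped (log2 fold change 0.21, SE 0.22). Cplx1 had 152 and 93 counts in cKO and 1 and 43 counts in controls, which is 9.77 and 5.23 CPM in cKO and 0.0909 and 2.05 CPM in controls. The cKO libraries were both above the controls, but the control libraries differed widely from each other, and the log2 fold change of 2.78 had a 95% interval of -1.17 to 6.72 (edgeR adjusted p = 0.857). With 1 library left out it was 1.86 to 6.24, the highest without control replicate 2, where the adjusted p was 0.0739. The share of Cplx1 in the complexin level per length was 17.1% and 10.3% in cKO and 0.264% and 4.31% in controls.

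Among the calcium sensors Syt4 dominated. Syt4, a synaptotagmin of neuroendocrine granules that binds little calcium, had 631 and 693 CPM in cKO and 547 and 710 CPM in controls. The groups overlapped (log2 fold change 0.07, 95% interval -0.31 to 0.46). It held 65.4% and 63.4% of the level per length of the 5 synaptotagmins in cKO and 65.9% and 68.4% in controls. Syt5 (chr7:4539765-4547541, - strand), a calcium-binding synaptotagmin of dense-core vesicles, had 74.3 and 74.0 CPM in cKO, against 47.9 and 52.1 CPM in controls. Each cKO library exceeded each control, with a log2 fold change of 0.57 (95% interval 0.03 to 1.10, edgeR adjusted p = 0.693). Syt11, which lacks calcium binding, had 138 and 211 CPM in cKO and 110 and 142 CPM in controls, and its groups overlapped (log2 fold change 0.47, SE 0.25). Its counts were not whole numbers in the cKO libraries. Its value may depend on how reads were divided between genes, which the sources used here do not say. Syt1, the fast sensor of synapses, and Syt7, a slower sensor of high affinity, had log2 fold changes of -0.20 (SE 0.23) and -0.16 (SE 0.20). Doc2b, a soluble sensor of high affinity, had 192 and 251 counts in cKO and 26 and 397 counts in controls, and the wide spread of the controls left a difference undetectable here (log2 fold change 0.30, 95% interval -1.84 to 2.44).

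The granule Rabs were led by Rab27a and Rab3b. Rab27a, which docks granules through its effectors, had 395 and 388 CPM in cKO and 504 and 422 CPM in controls. The groups did not overlap and cKO was lower, with a log2 fold change of -0.24 (edgeR adjusted p = 0.864, SE 0.15). Its paralogue Rab27b (chr18:69979131-70141605, - strand) had 37.1 and 31.6 CPM in cKO and 59.8 and 85.3 CPM in controls. Rab27b had the most negative fold change of the members, -1.08 (SE 0.29, 95% interval -1.75 to -0.41, edgeR adjusted p = 0.529), which is 47.3% of the control level. It passed the threshold without a filter on low counts (adjusted p = 0.0277, where 1.04% of all genes passed), with DESeq2 (0.00181) and with limma-voom (0.0362), with log2 fold changes of -1.08, -1.07 and -1.13, and its adjusted p was 0.113 at the lowest with 1 library left out. Per length Rab27b was the minor form, 3.30% and 2.88% of the Rab27 level in cKO and 4.13% and 6.84% in controls.

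The Rab3 genes code for the GTPases that cycle on and off granules. Rab3b held 73.7% and 74.4% of the Rab3 level per length in cKO and 77.8% and 66.2% in controls, and its log2 fold change was -0.10 (95% interval -0.60 to 0.39). Rab3d had 16.8 and 22.4 CPM in cKO and 28.6 and 36.7 CPM in controls. Again the groups did not overlap and cKO was lower, with a log2 fold change of -0.74 (edgeR adjusted p = 0.761, SE 0.37). Rab3a and Rab3c, at log2 fold changes of -0.23 (SE 0.30) and 0.12 (SE 0.24), had groups that overlapped. Of the 6 granule Rabs, 5 were below 0, beside 47.6% of all genes tested, and 3 had cKO libraries below both controls, where 19.3% did. With 1 library left out, Rab3a and Rab3b reached log2 fold changes above 0, of 0.0337 and 0.11 at the highest.

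**Figure D4:**
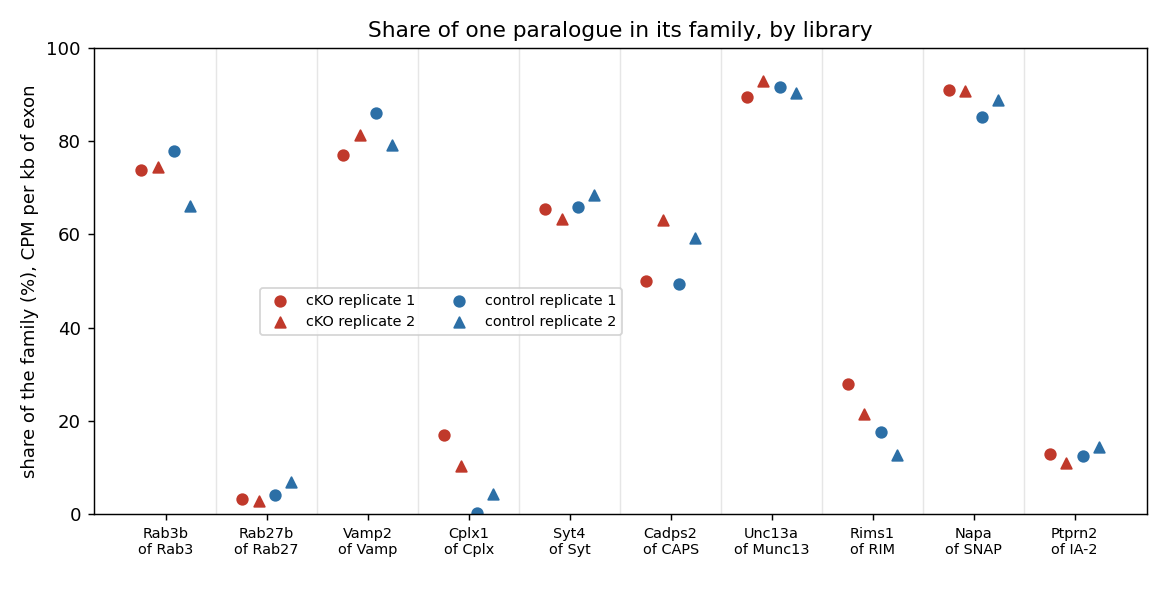
Share of a paralogue in the summed level per length of its family, in percent, in each library, for 10 families of members. Red points are cKO libraries and blue points control libraries, circles are replicate 1 and triangles replicate 2. The shares of Cplx1, Rims1 and Napa are higher in both cKO libraries, and those of Rab27b and Syt4 are lower. Those of Rab3b, Vamp2, Cadps2, Unc13a and Ptprn2 overlap between the groups.

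Rab effectors link the Rab proteins to the release site. Rph3al, which codes for Noc2, a small effector of Rab3 and Rab27 in endocrine granules, was the most abundant effector per length, with 103 and 105 CPM in cKO and 116 and 130 CPM in controls. Both cKO libraries were below both controls, by a log2 fold change of -0.24 (edgeR adjusted p = 0.937, SE 0.19). Rims1 (chr1:22286251-22805994, - strand), one of the RIM scaffolds that bind Rab3 and Munc13, had 28.5 and 24.8 CPM in cKO and 11.8 and 13.8 CPM in controls. The cKO libraries exceeded the controls without overlap, with a log2 fold change of 1.06 (95% interval 0.07 to 2.04, edgeR adjusted p = 0.692, SE 0.42). Rims2 was the main RIM, with 72.1% and 78.4% of the RIM level per length in cKO and 82.3% and 87.2% in controls, and a log2 fold change of 0.14 (SE 0.28). Sytl4, which codes for granuphilin, a Rab27 effector that docks granules, had 0.10 (SE 0.24).

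The remaining effectors were barely detected. Rph3a, for rabphilin, had 35 and 25 counts in cKO and 0 and 66 counts in controls. The count of 0 allows a level of up to 0.273 CPM in control replicate 1. Sytl5, a Rab27 effector, had 3.86 CPM in cKO replicate 1 and 0 CPM in the other libraries, where a count of 0 allows up to 0.169 CPM in cKO replicate 2, 0.273 CPM in control replicate 1 and 0.143 CPM in control replicate 2. These limits take 3 counts as the floor and cover counting error only. Sytl5 was left out by the filter and not tested.

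Priming factors had log2 fold changes between -0.11 and 0.41. Unc13a, a Munc13 protein that opens syntaxin 1, had 269 and 305 CPM in cKO and 307 and 295 CPM in controls. The groups overlapped, and the log2 fold change of -0.07 had a 95% interval of -0.42 to 0.28. It held 89.4% and 92.9% of the Munc13 level per length in cKO and 91.7% and 90.4% in controls, above its paralogue Unc13b. Exons of Unc13a share 495 bases with Colgalt1 on the opposite strand, which had 3223 counts in all beside 19153 for Unc13a, and reads of the shared bases cannot be told apart without strand. Cadps and Cadps2, for the CAPS proteins that prime dense-core granules, had similar levels per length, and Cadps2 held 49.9% and 63.1% of their sum in cKO and 49.4% and 59.1% in controls. Their log2 fold changes were 0.37 (SE 0.30) and 0.41 (SE 0.29).

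The disassembly factors gave the smallest p of the machinery. Napa (chr7:16098458-16117975, + strand) codes for alpha-SNAP, the adaptor that loads NSF onto SNARE complexes, and had 217 and 251 CPM in cKO, against 136 and 157 CPM in controls. Both cKO libraries were above both controls, with a log2 fold change of 0.67 (95% interval 0.27 to 1.08, edgeR adjusted p = 0.515, SE 0.17). DESeq2 gave an adjusted p of 0.00012 and limma-voom 0.0362, at log2 fold changes of 0.68 and 0.65. Over the 4 fits with 1 library left out the log2 fold change was 0.55 to 0.78. Its count was not a whole number in control replicate 1 (1499.5). Nsf, for the ATPase itself, had 75.2 and 66.9 CPM in cKO and 93.8 and 96.9 CPM in controls. Both cKO libraries were below both controls, the opposite side from Napa, by a log2 fold change of -0.42 (edgeR adjusted p = 0.741, SE 0.20). Napb, for beta-SNAP, held 9.08% and 9.25% of the SNAP level per length in cKO and 14.8% and 11.3% in controls, with a log2 fold change of 0.12 (SE 0.28).

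Ptprn and Ptprn2 code for IA-2 and phogrin, receptor-type phosphatase homologues that span the granule membrane and help set granule number. Ptprn had 1233 and 1529 CPM in cKO and 1647 and 1484 CPM in controls, and its groups overlapped (log2 fold change -0.18, 95% interval -0.51 to 0.15). Ptprn2 (chr12:116485720-117276849, + strand) had 370 and 378 CPM in cKO, against 479 and 505 CPM in controls. Each cKO library lay under each control, by a log2 fold change of -0.40 (95% interval -0.71 to -0.08, edgeR adjusted p = 0.642, SE 0.13). Syn1, for the vesicle phosphoprotein synapsin I, had 148 and 193 CPM in cKO and 159 and 177 CPM in controls (log2 fold change 0.02, SE 0.19). The exons of Syn1 share 9 bases with Araf on the opposite strand, and no source used here says whether the counting used strand.

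A wider list of 96 exocytosis genes, which shares no gene with the members, was read from the same fit. Of 91 tested genes, 45 were above and 46 below 0, with a median log2 fold change of -0.02, and 0 passed by edgeR. At an unadjusted p under 0.05 there were 9 (9.89%), 3 higher and 6 lower in cKO, beside 7.04% of all genes. DESeq2 called 6 (6.59%), beside 5.44% of all genes, and limma-voom called 0. The genes with the smallest p included Sytl2 and Sytl3, for Rab27-binding synaptotagmin-like proteins. Sytl2 had 6.24 and 3.54 CPM in cKO and 22.0 and 21.7 CPM in controls (log2 fold change -2.16, SE 0.58, edgeR adjusted p = 0.535). Sytl3 had 8.41 and 11.5 CPM in cKO and 22.9 and 35.4 CPM in controls, from counts that were not whole numbers. Myrip, for an effector that ties Rab27 granules to myosin, was on the other side, with 27.7 and 22.8 CPM in cKO and 6.64 and 11.8 CPM in controls (log2 fold change 1.45, SE 0.50, edgeR adjusted p = 0.649). The other 3 genes named by p were Unc13c, a further Munc13 gene, at -1.16 (SE 0.36), Ppfia1, for a liprin scaffold, at -0.56 (SE 0.21), and Erc2, for an active zone protein, at -1.14 (SE 0.44). DESeq2 called Sytl2, Sytl3, Unc13c and Myrip of these.

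The cargo of the granules stood beside the machinery in the same libraries. Chga, for chromogranin A, had 1275 and 1317 CPM in cKO and 9420 and 11230 CPM in controls, and its log2 fold change was -2.99, with an SE of 0.12 and an adjusted p of 0.000404 by edgeR. Scg2, for secretogranin II, had 6883 and 7496 CPM in cKO and 22408 and 16411 CPM in controls (log2 fold change -1.43, edgeR adjusted p = 0.0413). Of the 11 granule cargo and processing genes listed, these 2 passed, beside 0.0576% of all genes tested. The median log2 fold change was -0.30, and 9 were below 0, beside 47.6% of all genes tested. For 5 of the 11 both cKO libraries were below both controls, beside 19.3% of all genes tested, and for 0 both were above. Chgb had 1293 and 1291 CPM in cKO and 2755 and 2309 CPM in controls (edgeR adjusted p = 0.0843). Pcsk1 had 385 and 411 CPM in cKO and 848 and 744 CPM in controls (edgeR adjusted p = 0.108). Pcsk1n, a further abundant granin-like gene, had -0.19 (SE 0.14). Whether the lists differ as groups was not tested.

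Many members are also used by neurons and by other endocrine cells of the pituitary, and in bulk RNA fewer cells of a type and less RNA per cell cannot be told apart. The 12 neuronal markers summed to 436 and 515 CPM in cKO and 418 and 411 CPM in controls. Of these, 5 were higher and 2 lower in both cKO libraries, beside 19.7% and 19.3% of all genes tested. Slc32a1 had 0 counts in both cKO libraries and Avp had 0 counts in both controls. The part of these cells, of the corticotrope, lactotrope, somatotrope and stem cell markers and of the mitochondrial share in the members' levels was not tested.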

How the data were processed

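Poly(A) RNA of sorted gonadotropes was sequenced in 2 cKO and 2 control libraries. Per the submitters' processing notes, STAR 2.5.1b and featureCounts 1.5.0-p1 were used on mm10. Not given in the sources used here: annotation, strand setting and how reads with several matches were treated. The table deposited by the authors holds estimated counts (expected counts) per gene, unscaled, and 13.4% of the values above 0 were not whole numbers. If the fractions come from reads divided between genes, the counts of similar genes are uncertain. Of 54532 identifiers 54495 matched GENCODE M21 with the version left off. The columns were mapped to samples by their titles.

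Counts were rounded to whole numbers, filtered with filterByExpr (minimum count 10, minimum total 15, by group) and scaled with TMM factors. The 17349 genes left were tested two-sided with edgeR 4.0.16 (quasi-likelihood F-test, R 4.3.3), in a model of group alone. A gene was called at a Benjamini-Hochberg adjusted p below 0.05. The SE is the log2 fold change divided by the square root of F, and 95% intervals use the t quantile on the degrees of freedom of the test. Levels are CPM, compared between genes per kb of merged exons. With 2 libraries against 2 an exact permutation test of a single value cannot go below p = 0.333, and family shares were not tested.

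DESeq2 1.42.0, limma-voom (limma 3.58.1), other scalings and filters, the replicate number as a block and leaving out each library were alternatives. The members and lists were chosen with earlier results of these data known. In full were given the 10 members with the smallest p and the most abundant member of each role. Named from the wider list were the 6 genes with the smallest p, and from the cargo list the called and most abundant genes. Rab11a, Chgb, Pcsk1 and the markers Nr5a1, Slc32a1 and Avp were named after their values were seen. Libraries with the same number did not deviate together over the genes tested (correlation of deviations -0.01). No label says what the numbers share, and this value cannot show whether the libraries were paired. Totals of 10646909 to 21135301 counts limit genes of under 100 counts most, and intervals cover these libraries only.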

Additional observations from a re-analysis of the deposited data

How the results depend on the processing

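The number of genes called, 10, was 253 without a filter, 3 when 1 CPM in 2 libraries was asked for, 256 with limma-voom, 943 with DESeq2, 47 with the newer quasi-likelihood method, 26 with robust=TRUE, 6 with libraries thinned to the smallest total and 66 to 681 with 1 library left out (73 leaving out cKO replicate 1, 100 for cKO replicate 2, 66 for control replicate 1 and 681 for control replicate 2). The number of members called, 0, was 1 without a filter, 6 with DESeq2, 2 with limma-voom and 0 to 0 with 1 library left out, where 2 to 11 members had an unadjusted p under 0.05. For the wider list, 0 became 6 with DESeq2 and 0 to 1 with 1 library left out (Rab11a, 1.26, without control replicate 2). The cause was not tested. The median log2 fold change of the members was -0.09 to 0.19 with 1 library left out. The replicate block gave 7 genes and 0 members, with a member median of 0.05. Of the 34 members, 18 kept their sign under all 15 alternatives, and 16, which no alternative called, did not. Vamp3 was -0.0647 with limma-voom and -0.00825 with the newer method, Rph3a -0.19 with the newer method and -0.19 with thinned libraries, and Syn1 -0.0187 with library size only. With 1 library left out, the log2 fold change ranged from -0.56 to 0.23 for Stx1a, -0.39 to 0.38 for Vamp3, -0.11 to 0.28 for Syt4, -0.39 to 0.0307 for Syt7, -0.53 to 2.48 for Doc2b, -0.45 to 0.0337 for Rab3a, -0.37 to 0.11 for Rab3b, -0.14 to 0.33 for Rab3c, -0.20 to 0.58 for Rims2, -0.16 to 0.41 for Sytl4, -0.79 to 7.76 for Rph3a, -0.17 to 0.0179 for Unc13a, -0.35 to 0.0889 for Unc13b, -0.10 to 0.72 for Cadps, -0.0210 to 0.23 for Napb and -0.19 to 0.20 for Syn1. Of 20 family shares (10 families, each group), 10 moved by more than 1 SD when the longest transcript replaced merged exons and 0 with library size only. Where 1 library stood alone, its spread was taken from the other group. Depth limits Cplx1, Doc2b, Rph3a and Sytl5 most.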
